A study of Solanum lycopersicum with 12 samples.

Results

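CONSTANS 1 and other genes grouped as flowering regulators, 5 genes in all, were followed in tomato stems: CONSTANS 1 (Solyc02g089540.3), a Dof-type gene (Solyc05g007880.4), a MADS-box gene (Solyc06g069430.3), a gene of the heading date repressor family (Solyc03g117670.4) and a bZIP gene (Solyc02g083520.2). They are 5 of the 6120 genes listed in 2 tables of expression values, of which 6043 could be read. Each table had been selected by the authors on its own comparison: 1 held genes that differed between weighted and control stems at 10 days, the other genes that differed at 6 h. The 5 genes were chosen from those tables with such differences known. Of these, 4 stand in the 10 day table and 2 in the 6 h table, and CONSTANS 1 stands in both. A gene in only 1 table was not listed for the other time, so its result there is not free of the selection either. In the authors' deposited values the 6 h q was 0.312 for the Dof-type, 0.958 for the MADS-box and 0.740 for the heading date repressor family gene. For the bZIP gene the 10 day q was 0.957.

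The plants were tomato (Solanum lycopersicum) of the variety Ailsa Craig, grown singly in 0.5 l pots in a greenhouse under long days of 16 h light and 8 h dark at about 28 °C. Weighted plants carried a 3 g wooden clamp on the stem top for 48 h, starting when stems were 4.5 to 5 cm tall, and control plants carried none. Stem RNA was sequenced in 4 groups of 3 libraries: control and weighted stems taken 6 h after the start of loading, and control and weighted stems taken 10 days after it had ended. These times are from the series' design text, by which the 6 h samples of the weighted group still bore the clamp. The sample labels instead place the 6 h samples after the treatment, and the files do not settle which holds, so 6 h values may be from during or after loading. The labels call the replicates biological but do not say how many plants went into each. Plant age was not given, nor was the hour of day at harvest, and age, collection day and hour go with the time point and cannot be told apart. The labels' batch field names only the time point.

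In Arabidopsis, CONSTANS is a B-box and CCT-domain protein that is made in leaf veins under the control of the circadian clock and that switches on FLOWERING LOCUS T in long days. A group of Dof-type factors, the CYCLING DOF FACTORS, repress CONSTANS there, and GIGANTEA with the blue-light receptor FKF1 removes them in the afternoon. The FLOWERING LOCUS T protein moves to the shoot apex, where it acts with a bZIP factor and switches on MADS-box genes of floral identity. In rice, the heading date repressor 1 protein delays flowering in long days. Tomato, unlike both, flowers largely regardless of day length. The files place CONSTANS 1 and the Dof-type gene under the plant circadian rhythm, CONSTANS 1 and the heading date repressor family gene under regulation of flower development, and the bZIP gene under plant hormone signal transduction. The MADS-box gene is described by its domains alone, an SRF-type DNA-binding domain and a K-box, with no flowering term.

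All values are FPKM, in which fragments are divided by transcript length and by the library's mapped total, so that they are levels per length. Differences were computed on log2(FPKM + 1), which understates the fold change of low genes, and tests were made with limma with Benjamini-Hochberg adjustment over all genes tested of the same table. A gene was called below an adjusted p of 0.05. The summed FPKM of a library's listed genes ranged from 63786.8 to 118360.7 in the 10 day table and from 256443.3 to 299023.2 in the 6 h table. In the 10 day table the second 10 day control library had the highest sum. In a bulk stem sample, fewer cells of a type and less RNA per cell cannot be told apart.

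CONSTANS 1 stood at 32.29, 18.71 and 30.08 FPKM in the 3 control libraries at 10 days and at 5.23, 6.18 and 6.97 FPKM in the 3 weighted libraries. The lowest control lay 2.68-fold above the highest weighted library, so the groups did not overlap. The control mean of 27.0 ± 7.29 FPKM (SD, n = 3) was 4.41-fold the weighted mean of 6.13 ± 0.87. On log2(FPKM + 1) the difference was -1.95, the third lowest of the 1114 genes of the 10 day table compared. The table was selected on this difference, so it is given as a description with no test. The same holds for its background: 99.7% of the 10 day table's genes tested were called in this comparison. Of the 1114 genes compared, called or not, 577 were higher and 537 lower.

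At 6 h CONSTANS 1 was at 10.76, 9.12 and 6.07 FPKM in control stems and at 2.56, 6.75 and 2.51 FPKM in weighted stems. The groups overlapped through the second weighted library, which lay above the third control. The control mean of 8.65 ± 2.38 FPKM was 2.20-fold the weighted mean of 3.94 ± 2.43 (SD, n = 3 each). In the limma fit of the 6 h libraries alone the log2 difference was -1.04 (SE 0.34, 95% interval -1.86 to -0.22) and did not pass, with an adjusted p of 0.0646. Over the alternatives tried, the adjusted p ran from 0.0127 to 0.186, and without the second weighted library the difference was -1.42 with an adjusted p of 0.0169. It also passed with array weights (0.0127) and with all 12 libraries in the fit (0.0245). An exact two-sided permutation test on the 6 libraries gave p = 0.2, where 0.1 is the smallest that 3 against 3 can give. CONSTANS 1 is also listed in the 6 h table, with a q of 0.0109 in the authors' deposited table, so its 6 h difference is not free of that selection either. Of the 1085 genes of the 10 day table tested at 6 h, 297 were called, or 27.4%, and the median difference was 0.02. That count ran from 86 to 344 when 1 library was left out, the lowest being without the first weighted library. The 360 genes read in both tables had also been listed for a 6 h difference, so the 27.4% is not free of the selection either.

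CONSTANS 1 was higher at 10 days than at 6 h by 1.08 on the log2 scale over both treatments (SE 0.22, adjusted p = 0.000613, limma; 12 libraries). Its mean was 3.12-fold higher in control stems, where the 6 h and 10 day libraries did not overlap, and was 1.56-fold higher in weighted stems, where they did. The 10 day weighted mean of 6.13 FPKM was below the 6 h control mean of 8.65 FPKM, and those 2 groups overlapped in range. An exact permutation test of the time difference within treatments gave p = 0.015, with 0.005 the smallest possible.

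**Figure D1:**
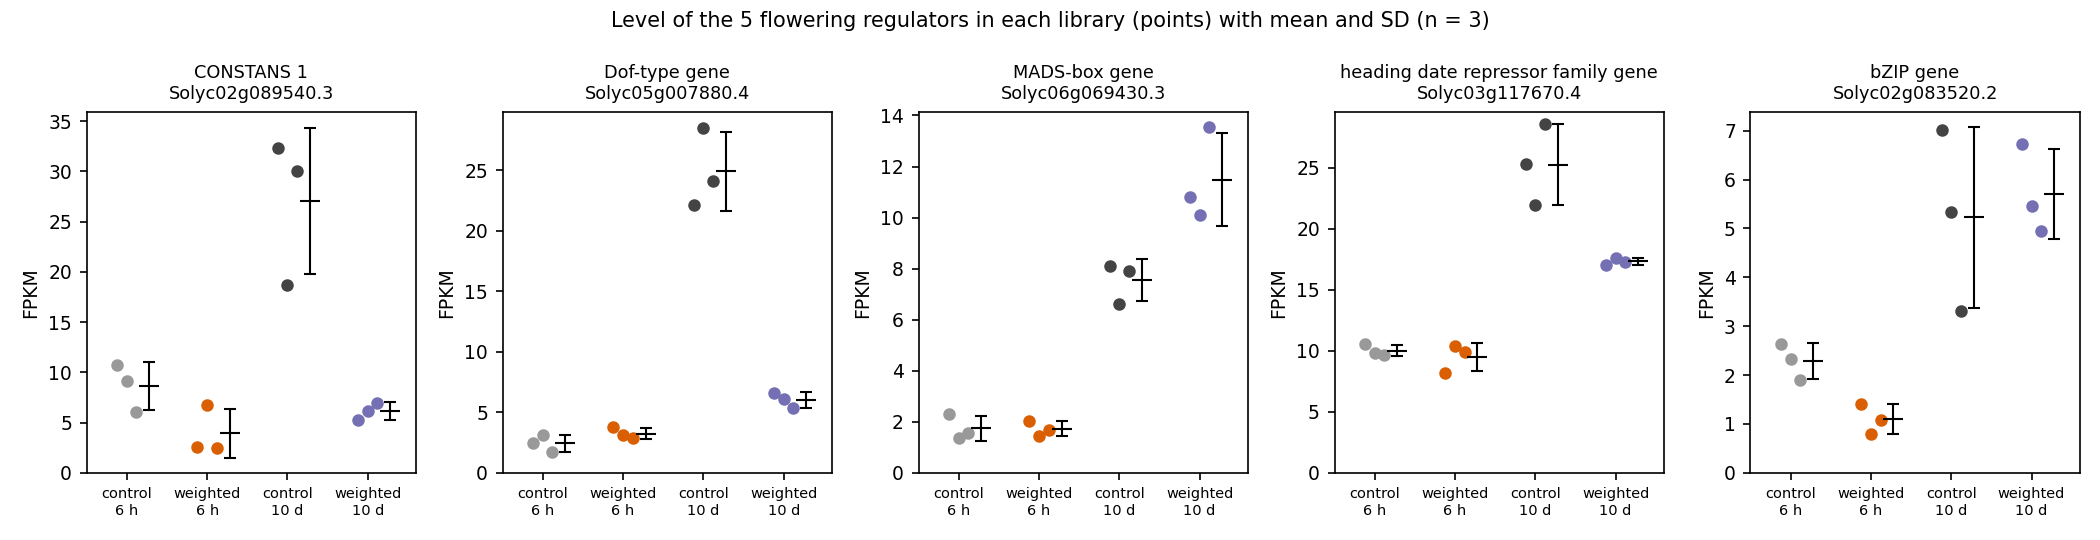
FPKM of the 5 genes in each of the 12 libraries (points, y axis from 0, 1 panel per gene), by group on the x axis, with the mean and SD of 3 libraries beside each group. At 10 days CONSTANS 1 and the Dof-type gene lie between 18.71 and 32.29 FPKM in control stems and between 5.23 and 6.97 FPKM in weighted stems; the MADS-box gene is the one of the 5 whose weighted 10 day libraries all lie above the controls.

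The Dof-type gene ranged from 1.71 to 28.53 FPKM over the 12 libraries. At 10 days it was at 22.1, 28.53 and 24.16 FPKM in control stems and at 6.61, 6.06 and 5.35 FPKM in weighted stems, again with no overlap. The control mean of 24.9 ± 3.28 FPKM was 4.15-fold the weighted mean of 6.01 ± 0.63 (SD, n = 3 each), a log2 difference of -1.88 and the fifth lowest of the 10 day table. This value, too, is the one the table was selected on.

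At 6 h the Dof-type gene was at 2.5, 3.13 and 1.71 FPKM in control and 3.77, 3.11 and 2.86 FPKM in weighted stems, with overlapping ranges. Its log2 difference of 0.32 (SE 0.17, 95% interval -0.10 to 0.73) did not pass in limma, adjusted p = 0.203. With all libraries brought to equal totals the difference was 0.52 with an adjusted p of 0.0436. That scaling moved the median of all genes of this table by 0.21 in the same direction. From 6 h to 10 days the Dof-type gene rose by 1.82 on the log2 scale over both treatments (adjusted p = 1.82e-08, limma), as 10.2-fold in control stems and 1.85-fold in weighted stems. The time points did not overlap in either treatment, and the exact permutation p was 0.005, the smallest possible.

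The levels of CONSTANS 1 and the Dof-type gene stood in different proportion at 6 h. In the 3 control libraries of 6 h CONSTANS 1 was 2.91 to 4.30 times the Dof-type gene in FPKM, while in the other 3 groups the ratio ran from 0.66 to 2.17. At 10 days it was 0.66 to 1.46 in control and 0.79 to 1.30 in weighted stems, so the ratio overlapped between treatments although both genes differed.

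The MADS-box gene went the other way at 10 days. It was at 8.12, 6.62 and 7.92 FPKM in control stems and at 10.81, 10.11 and 13.54 FPKM in weighted stems, and the groups did not overlap. The weighted mean of 11.5 ± 1.81 FPKM was 1.52-fold the control mean of 7.55 ± 0.81 (SD, n = 3 each), a log2 difference of 0.54 against a median of 0.53 among the table's genes that were higher. Its q of 0.0370 in the authors' deposited table is the nearest to the 0.05 limit of the 4 members listed there.

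At 6 h the MADS-box gene was low in both groups: 2.30, 1.36 and 1.55 FPKM in control stems and 2.03, 1.44 and 1.69 FPKM in weighted stems. The log2 difference was 0.00 with a 95% interval from -0.38 to 0.38, and it did not pass in limma, adjusted p = 0.998. From 6 h to 10 days the gene rose by 1.92 on the log2 scale (adjusted p = 7.56e-09, limma), 4.35-fold in control and 6.68-fold in weighted stems. All 6 libraries of 10 days lay above all 6 of 6 h. At 10 days its level was 1.64 to 2.07 times that of CONSTANS 1 in the weighted libraries and 0.25 to 0.35 times in the controls.

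The heading date repressor family gene varied within groups by a coefficient of variation of 1.71% to 13.2%. At 10 days it was at 25.27, 21.92 and 28.58 FPKM in control stems and at 17.04, 17.63 and 17.30 FPKM in weighted stems, which did not overlap. The control mean of 25.3 ± 3.33 FPKM was 1.46-fold the weighted mean of 17.3 ± 0.30 (SD, n = 3 each). The log2 difference of -0.51 was near the median of -0.52 of the table's genes that were lower. With equal totals, which moved the median of all genes by 0.24, it was -0.23.

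At 6 h that gene was at 10.55, 9.83 and 9.65 FPKM in control stems and at 8.15, 10.36 and 9.89 FPKM in weighted stems. The log2 difference of -0.08 (95% interval -0.33 to 0.17) did not pass in limma, adjusted p = 0.589. From 6 h to 10 days it rose by 1.03 on the log2 scale (adjusted p = 1.18e-07, limma), 2.52-fold in control and 1.83-fold in weighted stems, with no overlap of the time points in either.

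The bZIP gene was chosen from the 6 h table and was the lowest of the 5 at 6 h in weighted stems. It was at 2.64, 2.32 and 1.90 FPKM in control stems and at 1.41, 0.79 and 1.09 FPKM in weighted stems, with no overlap. The control mean of 2.29 ± 0.37 FPKM was 2.09-fold the weighted mean of 1.10 ± 0.31 (SD, n = 3 each). On log2(FPKM + 1) the difference was -0.65, and with a pseudocount of 0.1 it was -1.02, because the gene is close to 1 FPKM. The 6 h table was selected on this difference, and 99.3% of its genes tested were called in it, so no test is given.

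At 10 days the bZIP gene was at 7.02, 5.34 and 3.32 FPKM in control stems and at 6.72, 5.45 and 4.95 FPKM in weighted stems, with the controls spanning the weighted libraries. The log2 difference was 0.14 (SE 0.24, 95% interval -0.44 to 0.73), adjusted p = 0.805 in limma on the 10 day libraries alone. This comparison called 0 of the 4662 genes of the 6 h table, or 0%, while 767 had an unadjusted p under 0.05 and the smallest adjusted p was 0.0588. From 6 h to 10 days the bZIP gene rose by 1.28 on the log2 scale (adjusted p = 9.89e-06, limma), 2.29-fold in control and 5.20-fold in weighted stems, with no overlap in either.

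All 5 genes were called higher at 10 days than at 6 h. In the same contrast 48.5% of the 10 day table's genes tested and 32.5% of the 6 h table's genes were called higher, with medians over all genes of 0.19 and -0.23 on the log2 scale. Equal totals lowered the median of the 10 day table by 0.45 and raised that of the 6 h table by 0.12, and median-ratio scaling lowered the first by 0.18 and raised the second by 0.15. All 5 genes were still called higher under both scalings. The exact permutation p for the time difference was 0.005 for each gene but CONSTANS 1. The control increases ranged from 2.29-fold for the bZIP gene to 10.2-fold for the Dof-type gene, and the weighted increases from 1.56-fold for CONSTANS 1 to 6.68-fold for the MADS-box gene. Whether the time differences differed between treatments was not tested, because that comparison contains the difference the tables were selected on.

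**Figure D2:**
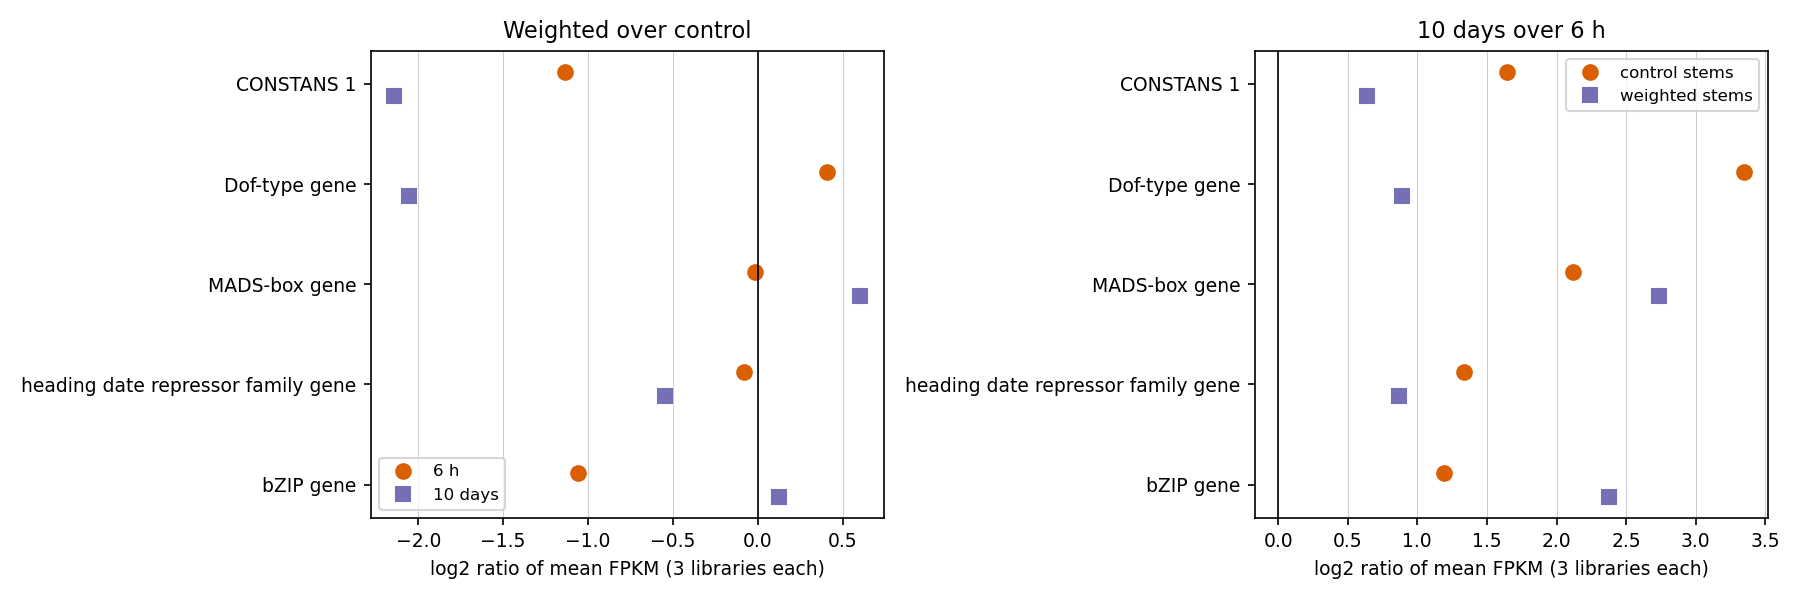
Log2 ratio of mean FPKM (x axis, 3 libraries in each mean) for each of the 5 genes: weighted over control at 6 h and 10 days (left panel), and 10 days over 6 h in control and weighted stems (right panel). All points in the right panel lie above 0, from 0.64 for CONSTANS 1 in weighted stems to 3.35 for the Dof-type gene in control stems, whereas in the left panel CONSTANS 1 alone is below -1 at both times.

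The order of the 5 levels changed between groups. In control stems of 6 h the heading date repressor family gene (10.0 FPKM) and CONSTANS 1 (8.65 FPKM) led with overlapping ranges, and the Dof-type, bZIP and MADS-box genes followed between 1.74 and 2.45 FPKM, also overlapping. In weighted stems of 6 h the heading date repressor family gene led alone, at 8.15 to 10.36 FPKM. In control stems of 10 days CONSTANS 1, the heading date repressor family gene and the Dof-type gene lay between 24.9 and 27.0 FPKM on average and overlapped, above the MADS-box and bZIP genes. In weighted stems of 10 days the heading date repressor family gene (17.3 FPKM) and the MADS-box gene (11.5 FPKM) led without overlap, above CONSTANS 1, the Dof-type gene and the bZIP gene at 5.71 to 6.13 FPKM, whose ranges overlapped.

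For each of the 5 genes, the genes of the same table with the most similar and the most opposite pattern were found by Pearson's r over the 12 libraries. The libraries share 4 groups, so these values mostly follow the group means and are descriptions. CONSTANS 1 was most like a SWEET gene, Solyc03g097590.4 (r = 0.950 among 956 genes compared), of the family of sugar transporters of the plasma membrane. The SWEET gene was at 11.86, 6.00 and 6.25 FPKM in control and 4.0, 6.06 and 1.96 FPKM in weighted stems at 6 h, and at 40.54, 24.73 and 25.90 against 7.86, 8.32 and 9.51 FPKM at 10 days. A tetratricopeptide-like gene, Solyc11g006360.1 (r = 0.945), and a fructose-1,6-bisphosphatase gene, Solyc10g086730.2 (r = 0.936), an enzyme of sucrose synthesis and the Calvin cycle, came next. Tubulin-folding cofactor D, Solyc01g091090.4, was the most opposite (r = -0.944). Among 4145 genes of the 6 h table the SWEET and fructose-1,6-bisphosphatase genes again led, followed by an ATP synthase delta subunit gene, Solyc05g050500.1 (r = 0.933), with a shikimate dehydrogenase gene, Solyc06g084460.4, at the other end (r = -0.926).

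The gene most like the Dof-type gene was another Dof-type gene, Solyc02g067230.3 (r = 0.978). A gene with a TPR region, Solyc08g079260.3 (r = 0.974), and an AP2/ERF gene, Solyc07g049490.3 (r = 0.972), followed, and the cysteine protease gene Cp5, Solyc02g076750.3, was the most opposite (r = -0.977). The MADS-box gene was most like an O-GlcNAc transferase gene, Solyc05g053835.2 (r = 0.986), a translation release factor gene, Solyc07g006130.3 (r = 0.985), and a pyruvate dehydrogenase E1 beta gene, Solyc05g024160.3 (r = 0.981). The release factor gene had means of 4.43 and 4.53 FPKM in control and weighted stems at 6 h and of 30.4 and 48.5 FPKM at 10 days. A RING-type ubiquitin ligase gene, Solyc02g087200.2, ran opposite to the MADS-box gene (r = -0.987), with 50.6 and 51.0 FPKM at 6 h and 12.3 and 7.22 FPKM at 10 days.

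The heading date repressor family gene was most like the gene listed as Tapetum determinant 1, Solyc10g054673.1 (r = 0.985). That gene was at 1.17 to 1.25 FPKM in control and 1.0 to 1.15 FPKM in weighted stems at 6 h, and at 8.49 to 10.8 and 4.97 to 6.27 FPKM at 10 days. A DUF2040 gene, Solyc11g068870.2, and a cullin neddylation gene, Solyc07g066650.4, came next (r = 0.982 each), and a cellulose synthase gene, Solyc04g071650.4, was the most opposite (r = -0.982). The bZIP gene was most like a TauE/SafE sulfite exporter gene, Solyc02g079980.3 (r = 0.974), a filament-like protein gene, Solyc12g068070.2 (r = 0.969), and Profilin-1, Solyc12g044630.2 (r = 0.968), an actin-binding protein. An ADP/ATP translocase gene, Solyc06g069410.3, was the most opposite to it (r = -0.960). Among the 5 genes themselves, r ran from 0.39 for CONSTANS 1 and the MADS-box gene to 0.91 for the Dof-type and heading date repressor family genes.

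Dof-type genes of the 2 tables were different genes: 3 in the 10 day table, 6 in the 6 h table and 0 in both. All 3 of the 10 day table were lower in weighted stems at 10 days, the difference they were listed for, and 0 of the 3 were called at 6 h, where 27.4% of the table was. None of the 3 had been listed by the authors for a 6 h difference, so that count is not free of the selection. Solyc02g067230.3 was at 7.37, 7.42 and 7.19 FPKM in control and at 3.68, 3.42 and 3.28 FPKM in weighted stems at 10 days. Solyc02g088070.3 was at 8.10, 8.05 and 7.39 FPKM in control and 4.05, 4.26 and 3.23 FPKM in weighted stems. Both thus kept the treatments apart at 10 days, with smaller log2 differences (-0.90 and -0.87) than the Dof-type member. At 6 h they were at 1.92 to 2.5 against 1.67 to 2.61 FPKM and at 3.28 to 4.16 against 2.83 to 3.35 FPKM, in overlapping ranges. All 3 were called higher at 10 days than at 6 h, as were 48.5% of the table's genes tested.

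All 6 Dof-type genes of the 6 h table were lower in weighted stems at 6 h, again the difference they were listed for. Of the 4939 genes of that table compared at 6 h, 2394 were higher and 2545 lower. At 10 days 0 of the 6 were called, as were 0 of all 4662 genes of that table tested. Among the 6 the largest 6 h differences were in Solyc06g062520.1 (22.4 ± 1.90 to 13.4 ± 1.84 FPKM), Solyc11g072500.2 (10.3 ± 3.08 to 6.05 ± 1.09 FPKM) and Solyc02g090220.3 (29.6 ± 7.83 to 18.7 ± 2.24 FPKM), each as mean ± SD of 3 control and 3 weighted libraries. Their 10 day means were 49.8 and 53.3, 51.2 and 65.2, and 24.1 and 32.5 FPKM in control and weighted stems in that order.

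**Figure D3:**
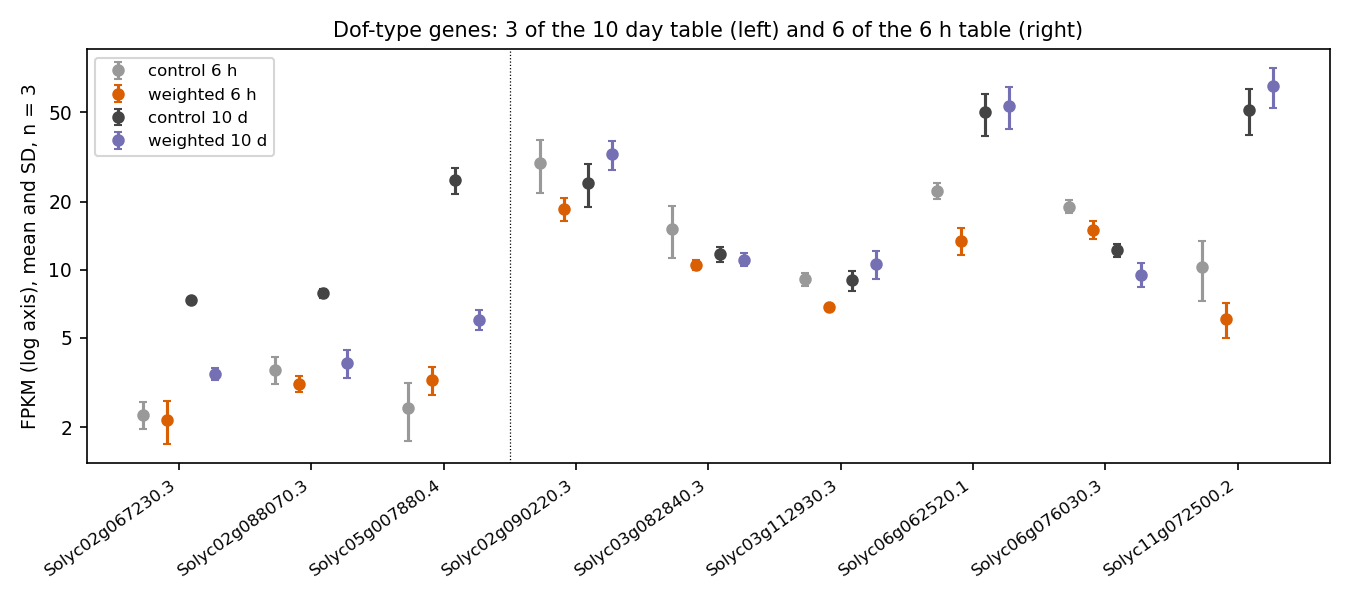
Mean FPKM with SD of 3 libraries (log y axis) of the 9 Dof-type genes in the 4 groups, with the 3 genes of the 10 day table left of the dotted line and the 6 of the 6 h table right of it. The 3 on the left have their highest level in control stems of 10 days, at 7.33, 7.85 and 24.9 FPKM; the 6 on the right were not called at 10 days, nor was any of the 4662 genes of that table tested.

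B-box genes, the family of CONSTANS 1, numbered 2 in the 10 day table and 13 in the 6 h table, both of the former among the latter. The other B-box gene in both tables, Solyc01g110370.4, was at 17.46, 17.17 and 17.30 FPKM in control and 9.17, 11.27 and 10.67 FPKM in weighted stems at 6 h. At 10 days it was at 24.29, 23.08 and 24.21 FPKM against 16.69, 15.49 and 12.83 FPKM. It was thus lower in every weighted library at both times, the differences it was listed for, and it was higher at 10 days by 0.47 on the log2 scale (adjusted p = 8.20e-05, limma). Of the 12 B-box genes of the 6 h table tested, 7 were higher and 5 lower at 6 h, the difference they were listed for. At 10 days 0 were called, as were 0 of all 4662 genes tested. CONSTANS 1 and Solyc01g110370.4 are among them although both were listed for a 10 day difference, so the count does not show that none differed. With time 9 were called higher and 2 lower, where 32.5% of the table was called higher. This count includes genes matched by their domain text alone, a retinoblastoma-related gene among them. After CONSTANS 1, the largest 6 h differences were in a gene with B-box and CCT text, Solyc12g006240.2 (3.75 ± 0.71 to 6.74 ± 1.18 FPKM), and in Solyc01g110370.4.

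Both MADS-box genes of the 10 day table were higher in weighted stems of that time, the difference they were listed for. The second, Solyc04g076690.4, which also carries a K-box, was at 2.70, 4.06 and 3.42 FPKM in control and at 8.44, 8.71 and 6.49 FPKM in weighted stems, a log2 difference of 1.02 and larger than that of the member. At 6 h it was at 0.45 to 1.39 FPKM in the control and 0.59 to 0.85 FPKM in the weighted libraries, below the level at which it was tested. The member was called higher with time, as given above; this gene passed the filter on low values only through its 10 day libraries, so no test of time is given for it. The 6 h table held 2 others: a K-box gene, Solyc01g150166.1, at 5.23 ± 0.78 in control and 7.70 ± 0.88 FPKM in weighted stems at 6 h, and Solyc01g102260.3, at 1.03 ± 0.25 and 0.38 ± 0.14 FPKM, too low to test at that time.

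Of 6 bZIP genes of the 10 day table, 1 was higher and 5 were lower at 10 days, the difference they were listed for. At 6 h 0 of 6 were called, where 27.4% of the table was. Only 1 of the 6 had been listed by the authors for a 6 h difference, so that count is not free of the selection. Solyc01g097330.3 (13.2 in control and 8.35 FPKM in weighted stems), Solyc11g044560.3 (47.4 and 69.4 FPKM) and Solyc04g071510.3 (19.0 and 14.0 FPKM) differed most. Of 13 tested in the 6 h table, the member included, 4 were called higher and 8 lower at 6 h, where 99.3% of the table was called by its selection, and 0 of 14 were called at 10 days, as were 0 of all 4662 tested. Solyc04g011670.3, listed in both tables for a difference at each time, is in all of these counts. The largest 6 h differences were in Solyc04g054320.4 (29.1 to 12.8 FPKM), Solyc02g084860.1 (3.91 to 9.46 FPKM) and HY5, Solyc08g061130.3 (3.92 to 8.67 FPKM), which in Arabidopsis acts in light signalling. The 6 h table also held 3 SBP-domain genes, a family that promotes flowering in Arabidopsis. All 3 were lower in weighted stems at 6 h, the difference they were listed for: Solyc01g080670.3 (19.4 to 16.3 FPKM), Solyc01g090730.3 (3.62 to 1.48 FPKM) and Solyc10g018780.3 (1.97 to 0.81 FPKM). Of all 4939 genes of the 6 h table compared at that time, 2394 were higher and 2545 lower. At 10 days 0 of the 3 were called, as were 0 of all 4662 tested. Their 10 day means were 36.3 and 38.8, 2.74 and 2.87, and 5.32 and 4.78 FPKM in control and weighted stems in that order. RAV1, Solyc04g007000.2, was higher at 6 h (1.32 to 8.75 FPKM), and the search for RAV also matched a WD-repeat gene, Solyc01g096110.3, which was higher at 10 days (4.67 to 7.07 FPKM). These, too, are the differences they were listed for.

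The list for light perception and the clock, which set CONSTANS expression in Arabidopsis, matched 5 genes of the 10 day table, of which 3 were higher and 2 lower in weighted stems, the difference they were listed for. One match rests on the words early flowering in its name: PHOTOPERIOD-INDEPENDENT EARLY FLOWERING 1, Solyc03g063220.2, which the files give an SNF2-related domain, found in chromatin remodellers. A GIGANTEA-like gene, Solyc04g071990.3, was at 12.37, 11 and 11.85 FPKM in control and 19.59, 17.77 and 25.94 FPKM in weighted stems at 10 days, the opposite direction to CONSTANS 1 and the Dof-type gene. A gene listed as prr37-like, Solyc04g049670.4 (67.3 ± 11.0 and 104 ± 14.2 FPKM), and PHOTOPERIOD-INDEPENDENT EARLY FLOWERING 1 (1.54 ± 0.11 and 2.80 ± 0.78 FPKM), were also higher. None of those 3 was called at 6 h, where 27.4% of the table was, and none had been listed by the authors for that time.

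Cryptochrome 1b, Solyc12g057040.2, a blue-light receptor, was at 13.84, 12.82 and 10.90 FPKM in control and 6.07, 5.35 and 8.52 FPKM in weighted stems at 10 days. A PHYTOCHROME KINASE SUBSTRATE gene, Solyc05g007480.1, was at 16.17, 13.01 and 14.28 against 8.00, 8.16 and 6.34 FPKM. Both were lower at 10 days and higher at 6 h: 3.52 ± 0.38 to 5.44 ± 0.62 FPKM and 3.79 ± 0.28 to 8.63 ± 0.76 FPKM. Both are listed in both tables, so these 2 directions are the ones they were listed for.

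The 6 h table listed 14 genes of light perception and the clock, 12 higher and 2 lower in weighted stems at 6 h. This is the difference they were selected on (99.3% of the table was called in it). Of all 4939 genes of that table compared at 6 h, 2394 were higher and 2545 lower. At 10 days 0 of 13 were called, as were 0 of all 4662 genes tested. The 13 include Cryptochrome 1b and Solyc05g007480.1, both listed for a 10 day difference, so the count does not show that none differed. An ELF4-domain gene, Solyc06g051680.1, was at 10.58, 7.17 and 8.14 FPKM in control and 23.78, 30.94 and 27.22 FPKM in weighted stems at 6 h. Adagio protein 3, Solyc01g005300.4, a name also used for FKF1, was at 3.8, 3.66 and 4.43 FPKM against 10.20, 7.51 and 12.88 FPKM. At 10 days Adagio protein 3 was at 3.19 to 5.05 FPKM in control stems and at 5.37, 4.80 and 19.65 FPKM in weighted stems, where 1 library stood far above the others. A further PHYTOCHROME KINASE SUBSTRATE gene, Solyc10g081340.1, went from 0.22 ± 0.07 to 1.83 ± 0.59 FPKM at 6 h.

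**Figure D4:**
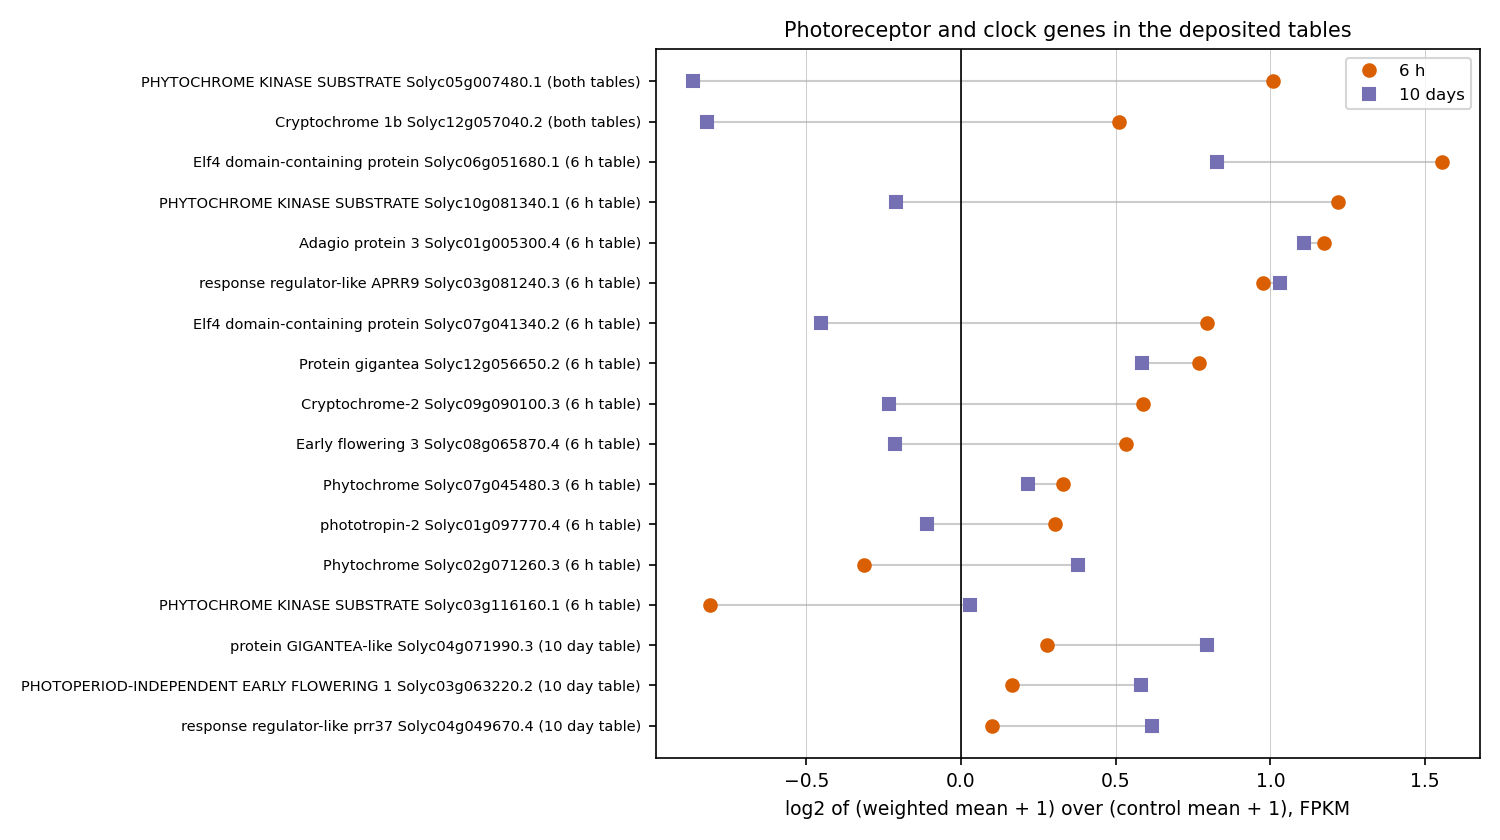
Weighted over control as log2 of the ratio of mean FPKM + 1 (x axis) at 6 h and 10 days for the 17 genes matched by the light perception and clock list in the 2 tables, with the table that listed each gene in brackets. Cryptochrome 1b and the PHYTOCHROME KINASE SUBSTRATE gene Solyc05g007480.1, listed in both tables, lie above 0 at 6 h and below 0 at 10 days.

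The remaining flowering lists added few genes of the pathway, and their directions at a table's own time are those of the selection. The 10 day table held 3 genes with flowering or heading date in their text: the heading date repressor family gene and 2 of the list above. At 10 days 2 of the 3 were higher and 1 lower. At 6 h 0 of 3 were called, where 27.4% of the table was. The authors had listed none of these 3 for a 6 h difference, so that count is not free of the selection. The 6 h table held 8, of which 4 of 7 tested were higher and 3 lower at 6 h and 0 were called at 10 days (0 of 4662 in the table), with the ELF4-domain gene already given, another ELF4-domain gene, Solyc07g041340.2 (13.7 to 24.5 FPKM), and an allene-oxide cyclase gene, Solyc02g085730.3 (176 to 99.95 FPKM), differing most. The search for FLOWERING LOCUS T and SELF-PRUNING type genes matched 5 genes of the 10 day table (3 higher, 2 lower) and 21 of the 6 h table (8 higher, 13 lower), none of that family by its listed domain: they were enzymes of lipids, lipases and GPI anchors among them, and EF-hand genes, matched by text. In control and weighted stems of 10 days they were a phospholipase D, Solyc01g091910.4 (4.14 and 5.36 FPKM), a phospholipase A2, Solyc07g014730.3 (16.5 and 41.8 FPKM), phospholipases A1, Solyc08g078090.1 (34.7 and 15.7 FPKM) and Solyc12g010910.2 (13.2 and 9.43 FPKM), and an Abhydrolase_2 gene, Solyc12g042890.2 (14.1 and 25.2 FPKM). At 6 h a class 3 lipase, Solyc09g065890.4 (18.3 and 6.60 FPKM), an EF-hand gene, Solyc10g006740.4 (18.3 and 8.40 FPKM), and an Abhydrolase_2 gene, Solyc08g067160.3 (7.02 and 15.5 FPKM), differed most. The list of flowering bZIP genes held the member alone. Inflorescence identity genes numbered 0 in both tables.

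Of gibberellin enzyme genes, 3 were in the 10 day table (2 higher and 1 lower at 10 days) and 6 in the 6 h table (4 higher and 1 lower of 5 tested). These are the differences they were listed for, and 99.7% and 99.3% of the genes tested were called in them. Gibberellin 2-oxidase 2, Solyc07g056670.3, an enzyme that inactivates gibberellins, and a gibberellin 2-beta-dioxygenase gene, Solyc02g080120.3, are in both tables and were higher in weighted stems at both times. Their means were 1.38 and 13.1, and 4.35 and 58.6 FPKM in control and weighted stems at 6 h, and 4.73 and 9.54, and 3.99 and 8.13 FPKM at 10 days. Solyc01g079200.4 was lower at 10 days (1.71 and 0.61 FPKM), at levels near 1 FPKM, where at 6 h it was at 152 ± 57.5 and 87.5 ± 47.9 FPKM. Solyc10g005360.4 was higher at 6 h (0.04 and 5.47 FPKM).

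Tissue markers could be read only where the authors had listed them for a difference between weighted and control stems. The directions below are therefore those of the selection, and markers that did not differ are not among them. Of the 1114 genes of the 10 day table compared at 10 days, 577 were higher and 537 lower. Of the 4939 genes of the 6 h table compared at 6 h, 2394 were higher and 2545 lower. Of the leaf and green tissue markers, 33 were in the 6 h table, 21 of them readable, and 20 of those 21 were lower and 1 higher in weighted stems at 6 h. Their summed level was 4754.54 to 6965.51 FPKM in control and 2277.75 to 2651.91 FPKM in weighted stems at 6 h, and 4501.84 to 4759.69 against 3715.9 to 4522.75 FPKM at 10 days. The 3 such genes of the 10 day table summed to 948.16 to 1182.24 FPKM in control and 568.72 to 754.96 FPKM in weighted stems at 10 days, all 3 lower, as was CONSTANS 1 in those libraries. Genes matched as xylem and secondary wall markers were higher in 5 of 5 of the 10 day table at 10 days (sums of 860.61 to 924.14 and 1190.74 to 1342.14 FPKM). Those of the 6 h table were 8 higher and 13 lower of 21 at 6 h. They were matched by the words laccase or cellulose synthase, which do not tell secondary wall genes from other wall genes. At 6 h the match also took in cellulose synthase-like genes and a GOLD-domain gene. With time 2 of the 5 were called higher and 3 lower, where 48.5% of the table was called higher, so they did not move as a single set. A laccase, Solyc09g014240.4, and a cellulose synthase, Solyc09g072820.4, rose by 1.63 and 1.72 on the log2 scale. The cellulose synthases Solyc01g087210.3, Solyc04g071650.4 and Solyc08g061100.3 changed by -0.93, -1.52 and -0.60. Phloem markers were 1 of 1 lower at 10 days and 4 higher and 1 lower of 5 at 6 h, and trichome markers 2 of 2 higher at 10 days and 8 of 8 lower at 6 h. Shoot apex and flower markers and cambium markers numbered 0 in both tables, so a part of floral buds or of cambium in these samples could not be read from them. The part of these tissues in the differences of the 5 genes was not tested.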

How the data were processed

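RNA-seq values of 12 tomato stem libraries were read from 2 tables of FPKM deposited by the authors, who selected each on its own comparison: 908 of 909 legible q-values of the 10 day table and all 2989 of the 6 h table were under 0.05. Per the labels' protocols, reads were aligned with HISAT to the genome and with Bowtie2 to the genes; no source here states versions, genome build, q-value test or read depth. In the deposited 6 h table, whose cells also hold FPKM, tabs and decimal points had been exchanged; 89 of 5346 genes could not be read, because the digits of their high values ran together, and 60 of 4320 values shared with the other table, all of 58.03 FPKM or more, differed by over 0.005. All other columns per sample were used (0 left out). Only 33.9% of low 6 h values were whole multiples of the gene's lowest value (tolerance 0.005 FPKM), so reads were not recovered and precision rests on 3 libraries per group.

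limma 3.58.1 (R 4.3.3) was run on log2(FPKM + 1) with trend, for genes with at least 1 FPKM in 3 of the libraries fitted, two-sided, with Benjamini-Hochberg adjustment, and was tested on simulated data. The weighted-control difference was tested only at the time a table was not selected on, in that time's 6 libraries. The 360 genes read in both tables, CONSTANS 1 among them, had been selected at both times, so their tests were not free of the selection. Time was tested in all 12 libraries. Genes named as alike had a name or domain and a mean of at least 5 FPKM in their highest group: the 3 highest and the lowest r for each member. Of each list, every gene was named where a table held at most 5, otherwise the 3 with the largest difference. The members, lists and markers were chosen with earlier results of these data known. Alternatives were pseudocounts of 0.1 and 0.5, no filter or 5 FPKM, median-ratio scaling, equal totals, array weights, a replicate block, all libraries in the fit and leaving out each library.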

Additional observations from a re-analysis of the deposited data

How the results depend on the processing

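Under the alternatives run, no called result changed sign. Differences that were not called did: the heading date repressor family gene at 6 h ran from -0.15 to 0.14, the MADS-box gene at 6 h from -0.10 to 0.16 and the bZIP gene at 10 days from -0.11 to 0.35 on the log2 scale. All 5 genes were called higher at 10 days than at 6 h in every one, with adjusted p up to 0.0197 (limma, CONSTANS 1). Counts called with time stayed within 843 to 949 (10 day table) and 3616 to 4487 (6 h table). The 297 genes of the 10 day table called at 6 h became 448 with equal totals, which moved the median of all genes by 0.21 on the log2 scale, 87 with a replicate block, and 86 to 344 when 1 library was left out: 91 and 115 without the first and the second control, and 86, 189 and 153 without weighted library 1, 2 and 3 of 6 h. The 0 genes of the 6 h table called at 10 days became 6 with at least 5 FPKM, 5 with median-ratio scaling, 8 with array weights, 175 with all 12 libraries in the fit, and 0 to 2 when 1 library was left out, with 2 without the second 10 day control. The cause of these shifts was not tested. Same-numbered libraries of different groups deviated from their group means with correlations from -0.46 to 0.55. Deviations from means of 3 libraries cannot show whether equal numbers mark a shared block, and the main fits assumed none. The replicate block changed no call of the 5 genes. The Dof-type and MADS-box genes give no value at 6 h with the 5 FPKM filter. Precision is limited by 3 libraries per group, an unknown read depth and, for the bZIP and MADS-box genes at 6 h, levels near 1 FPKM.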
